A study of Mus musculus with 24 samples.

Results

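The 76 genes described here are named for proteins of the mitochondrial ribosome, and all but Mrps36 encode such proteins. They were measured by RNA sequencing in the livers of 24 mice. They were chosen by name alone: every row of the deposited table whose gene identifier carries a protein-coding symbol beginning with Mrpl or Mrps and a digit, 47 Mrpl and 29 Mrps genes of 22392 genes in the table. The mice, all of the CD2F1 strain, fell into 3 groups of 8. CT mice were sham-injected and had no tumour. C26 mice received C26 colon carcinoma cells, a transplanted mouse line that causes wasting (cachexia). C26-CHO mice received the same cells and ate a diet holding 2% cholestyramine, a resin that keeps bile acids in the gut, from day 1 to day 10 after the injection. CT and C26 mice had no cholestyramine, so its effect was measured only in tumour-bearing mice, and only 1 tumour line was used. The labels used here give neither sex nor age, and whole livers were taken, so that fewer cells of a type and less RNA per cell cannot be told apart in any value that follows.

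Mitochondria carry their own ribosome, which makes the few proteins encoded by mitochondrial DNA, all of them core subunits of the respiratory chain and ATP synthase. Its RNA comes from mitochondrial DNA, whereas all of its proteins are encoded in the nucleus, made in the cytosol and imported. The large subunit (mostly Mrpl genes) forms peptide bonds and holds the exit tunnel, and the small subunit (mostly Mrps genes) reads the messenger RNA. Part of the proteins descend from bacterial ribosomal proteins and part are found in mitochondria only. In liver, mitochondria carry out fat oxidation and steps of urea synthesis and gluconeogenesis, and their respiratory chain depends on this ribosome for its core subunits. The symbols do not always match the place of the protein: Mrps30 and Mrps18a sit in the large subunit, and the product of Mrps36 was later found to belong to the 2-oxoglutarate dehydrogenase complex of the citric acid cycle. By structure the genes thus divide into 49 of the large subunit, 26 of the small subunit and Mrps36.

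Each library held 19.9 to 30.5 M gene reads, with group means of 22.02, 22.8 and 25.8 M in CT, C26 and C26-CHO. The values given below as levels are the deposited ones, reads divided by a size factor of the library. Every one of the 76 genes was read in every library, with between 76 and 1742 reads, and all passed the minimum mean level of 10. On the leading principal axis, which carried 71.9% of the variance over tested genes, CT lay between -83.15 and -75.36 and C26 livers lay between 28.81 and 54.62. The library C26-CHO 1 stood apart from the other C26-CHO libraries, at -13.41 against 22.32 to 50.48, so the counts over the 76 genes and their summed reads are given with and without it. The liver label fitted the hepatocyte markers (Alb, Apob, Ttr, Cps1, Hnf4a, Asgr1 and Serpina1c), all present in every group.

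Fewer transcripts of the mitochondrial ribosome were measured in the livers of tumour-bearing mice, but not of every protein. In C26 against CT, 43 of the 76 genes were lower, 13 were higher and 20 did not pass the test (limma on log2 of the level plus 1, Benjamini-Hochberg adjusted p under 0.05 over 14040 genes). Of all genes tested, 66.3% were called, 33.3% higher and 32.9% lower, so the share called among the 76 (73.7%) was near the background while the split between the directions was not. The median log2 fold change was -0.27 over the 76 genes and 0.01 over all genes tested. Regardless of direction, the median size of the log2 change was 0.34 over the 76 genes and 0.38 over all genes tested, but large changes were absent. The changes ran from -0.95 for Mrps35 to 0.80 for Mrpl17, and none of the 76 reached 2-fold. Of all tested genes, 17.4% were called with a change of at least 2-fold. The 8 CT and 8 C26 livers did not overlap for 33 of the 76 genes, against 35% of all genes tested.

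**Figure D1:**
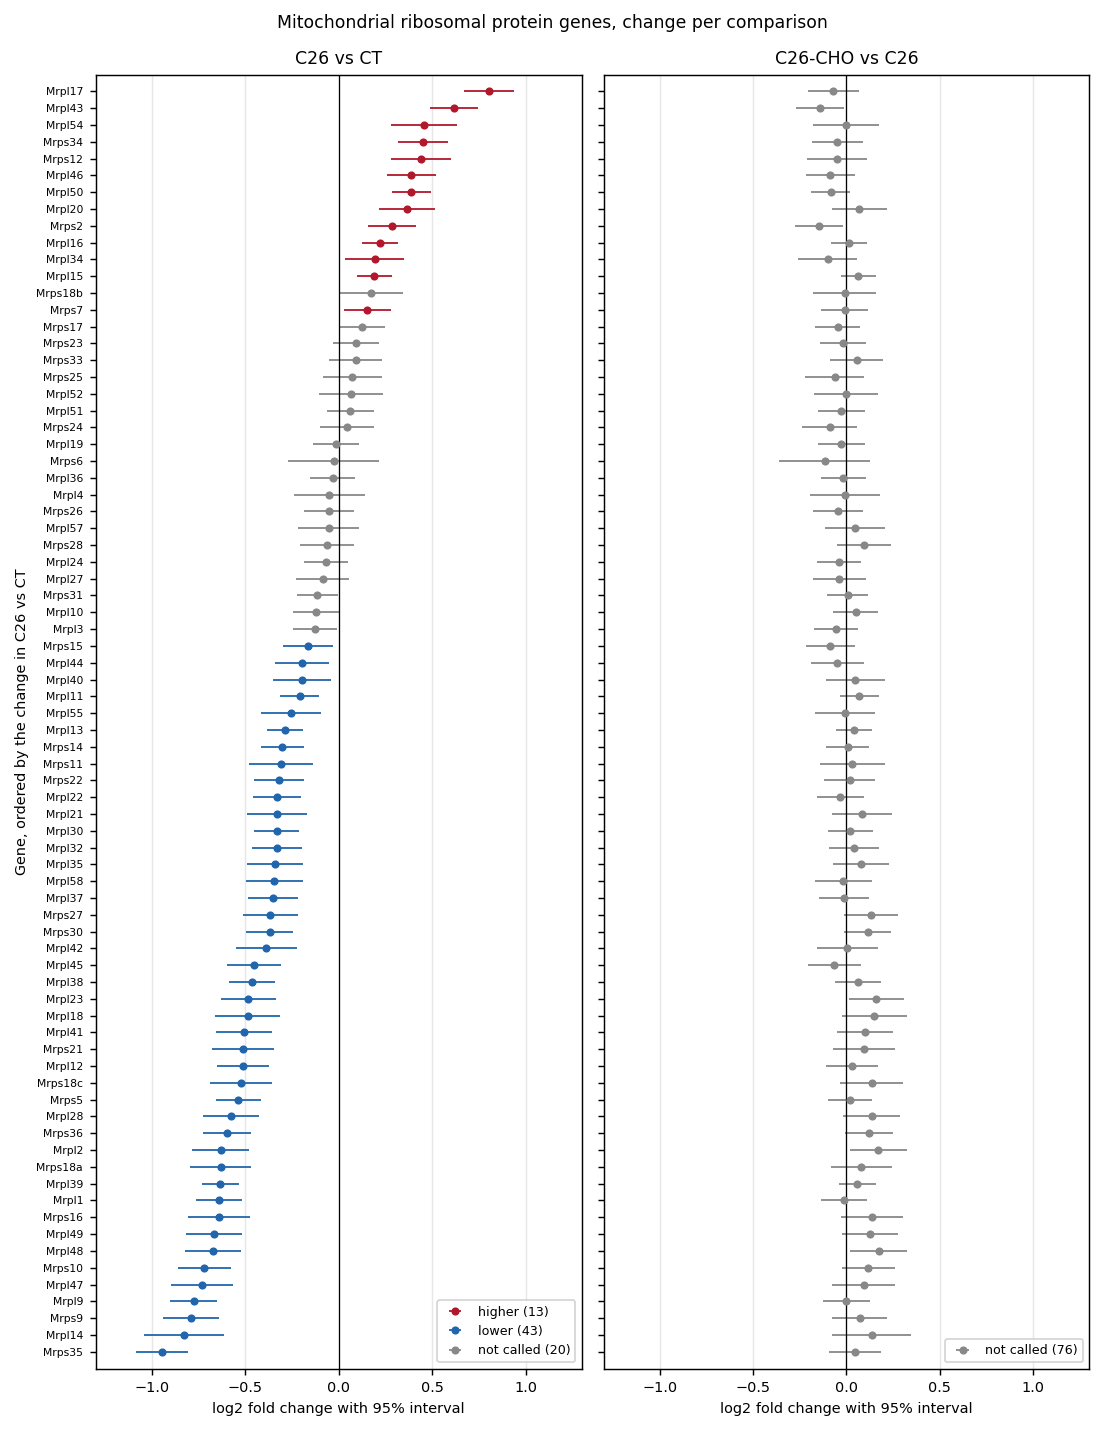
Log2 fold change with its 95% interval for each of the 76 genes, ordered by C26 vs CT (left, 43 lower in blue, 13 higher in red, 20 not called in grey), and C26-CHO vs C26 in the same order (right). On the left most genes lie below 0; on the right the points lie between -0.15 and 0.17 and none is called. When values are scaled to all reads of a library instead, 11 of the 13 genes in red lose their call or are called lower.

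As a sum, the 76 genes took 1918 ± 63.5 RPM (reads scaled to all reads of the library) in CT, 1351 ± 64.2 in C26 and 1397 ± 104 in C26-CHO (SD, n = 8 each). CT livers lay between 1832 and 1998, C26 livers between 1235 and 1412, and C26-CHO livers between 1321 and 1641, so CT overlapped with neither tumour group. The highest C26-CHO value was that of C26-CHO 1, without which this group lay between 1321 and 1422, at 1362 ± 34.3 (SD, n = 7). On the deposited scale the gap was smaller, and there the sums of CT overlapped with both tumour groups. They ran from 35808.9 to 41464.5 in CT, from 30900.9 to 36125.6 in C26 and from 31956.4 to 36140.3 in C26-CHO. The mean log2 level was 8.82 ± 0.07 in CT, 8.61 ± 0.08 in C26 and 8.63 ± 0.07 in C26-CHO (SD, n = 8 each). The scales differ because RPM divide by all reads: on that scale the median log2 change of all tested genes in C26 against CT was -0.28, and that of the 76 genes was -0.56, which is -0.29 relative to all genes. There 67 of the 76 genes were lower and 2, Mrpl17 and Mrpl43, were higher. All 43 genes lower on the deposited scale remained lower, whereas of the 13 higher genes 7 lost their call and Mrpl15, Mrpl16, Mrpl34 and Mrps7 were called lower. The split over all tested genes moved as well, to 16.6% higher and 58.4% lower.

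In the large subunit, 30 of 49 genes were lower and 9 higher in C26 (median log2 change -0.33). In the small subunit, 12 of 26 were lower and 4 higher (median -0.09). Of 47 genes with a bacterial counterpart 27 were lower and 8 higher, and of 28 genes found in mitochondria only 15 were lower and 5 higher. Among the latter, 12 of 19 in the large subunit and 3 of 9 in the small subunit were lower. The differences between these classes were not tested. Across the 76 genes the change was only weakly correlated with the CT level per kilobase of exon (Pearson's r = 0.10), with the CT level (r = -0.06) or with exon length (r = -0.16), a description over genes that share the same libraries. Exons of 31 of the 76 genes overlap exons of another gene in GENCODE M21. Whether reads were counted by strand is not given in the sources used here, so values of these genes are uncertain. Of the genes named below they include Mrpl9, Mrpl10, Mrpl12, Mrpl14, Mrpl19, Mrpl43, Mrpl46, Mrpl47, Mrpl48, Mrpl58, Mrps7, Mrps11, Mrps18c, Mrps25, Mrps30 and Mrps34. Among the 45 genes without an overlap, 28 were lower and 9 higher.

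The start regions of the genes are shown to set the sequences beside the changes. Promoters of mitochondrial ribosomal protein genes are known to be rich in sites for NRF1 and for ETS factors such as GABP. RefSeq promoter windows on GRCm38.p6, 250 bases before to 50 after a start, were found for 67 of the 76 genes, as 73 windows of 32851 in all. Both strands were searched for the letters below, none of which contains another. The NRF1 letters (GCGCA and GCGC parted by any 1 base) were in 17.8% of the 73 windows and in 4.60% of all, CCGGAAG (ETS) in 32.9% and 8.86%, and AAGATGGC (YY1) in 16.4% and 2.75%. CACGTG (E-box) was in 9.59% and 7.15%, and TGACGTCA (CRE) in 2.74% and 1.79%. By call in C26 against CT, the NRF1 letters were in 1 of 10 windows of higher genes, 10 of 46 of lower genes and 2 of 17 of genes not called, and the ETS letters in 4, 11 and 9 of them. A match describes these letters only.

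The 150 bases before the RefSeq start of genes with a large rise (Mrpl17 and Mrpl43) and a large fall (Mrpl9 and Mrps9) follow, 5′ to 3′ on the strand of the gene, with NRF1 and ETS letters in capitals. They lie at chr7:105811088-105811237 on the minus strand for Mrpl17, chr19:45006443-45006592 on the minus strand for Mrpl43, chr3:94443186-94443335 on the plus strand for Mrpl9 and chr1:42851083-42851232 on the plus strand for Mrps9. The NRF1 letters stand before a gene that rose (Mrpl17) and one that fell (Mrpl9), and the 150 bases printed for Mrps9 hold none of the letters searched. The same stretches of Mrpl14, which fell, and Mrps12, which rose, are not printed and held none of these letters either.
Mrpl17: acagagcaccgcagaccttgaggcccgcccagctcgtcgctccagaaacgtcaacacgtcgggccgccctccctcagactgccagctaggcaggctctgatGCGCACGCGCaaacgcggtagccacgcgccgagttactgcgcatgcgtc
Mrpl43: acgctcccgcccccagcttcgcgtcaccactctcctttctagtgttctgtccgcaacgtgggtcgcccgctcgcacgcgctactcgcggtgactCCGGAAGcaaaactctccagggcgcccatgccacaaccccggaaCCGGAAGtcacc
Mrpl9: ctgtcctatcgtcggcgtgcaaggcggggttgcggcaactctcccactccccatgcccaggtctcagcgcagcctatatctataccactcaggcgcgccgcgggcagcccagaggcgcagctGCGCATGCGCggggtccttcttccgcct
Mrps9: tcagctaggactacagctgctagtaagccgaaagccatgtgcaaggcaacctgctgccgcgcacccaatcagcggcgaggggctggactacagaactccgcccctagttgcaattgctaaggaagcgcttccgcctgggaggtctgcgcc

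Mrps35 (GRCm38 chromosome 6, 147042764 to 147073991, plus strand), a small subunit protein of mitochondria only, fell most. Its level ran from 453 to 520 in CT (median 486), from 230 to 289 in C26 (median 244) and from 204 to 299 in C26-CHO (median 263). Every tumour-bearing liver lay below every CT liver. The log2 change in C26 against CT was -0.95 ± 0.07 (SE, limma, adjusted p = 3.97e-12), or 0.52 of the CT level.

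Mrps9 is the mitochondrial form of a bacterial protein whose tail reaches the tRNA in the middle site of the small subunit. It lay at 387 to 500 in CT (median 440) and at 229 to 290 in C26 (median 253), without overlap, a log2 change of -0.79 ± 0.07 (SE, limma, adjusted p = 4.39e-10). Mrps5, whose bacterial counterpart lines the entry of the messenger RNA, also fell. It went from a median of 991 (863 to 1124) in CT to 683 (636 to 718) in C26, again without overlap (log2 change -0.54). Mrps21, with the highest level per kilobase of exon of all 76 genes, at 895.6 in CT, fell from a median of 676 (561 to 743) to 473 (344 to 533). Its groups did not overlap, and the log2 change was -0.51 ± 0.08 (SE, limma, adjusted p = 3.83e-06).

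Other small subunit genes went the opposite way. Mrps12, the counterpart of the bacterial protein that guards the accuracy of decoding, ran from 334 to 457 in CT (median 361) and from 425 to 586 in C26 (median 529). Of the 8 C26 livers, 7 lay above every CT liver, and the log2 change was 0.44 ± 0.08 (SE, limma, adjusted p = 2.05e-05). Mrps34, found in mitochondria only, rose from 240 to 320 in CT (median 279) to 348 to 433 in C26 (median 380), without overlap (log2 change 0.45). Its exons overlap those of Mapk8ip3 on the other strand, which rose by a log2 change of 0.62, so the value of Mrps34 is uncertain. Scaled to all reads, neither Mrps12 (log2 change 0.09) nor Mrps34 (0.10) was called. Mrps25, the gene with the lowest CT level per kilobase of exon (26.9), was at 147 to 214 in CT and 155 to 210 in C26. That overlap left a log2 change of 0.07 with a 95% interval from -0.08 to 0.23.

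In the large subunit the largest falls were in Mrpl14, Mrpl9 and Mrpl47. Mrpl14 (GRCm38 chromosome 17, 45686322 to 45698495, plus strand) lies at the face that meets the small subunit, where in human mitochondria the factor MALSU1 binds before the subunits may join. It ran from 438 to 574 in CT (median 483) and from 203 to 342 in C26 (median 289), without overlap, a log2 change of -0.83 ± 0.10 (SE, limma, adjusted p = 1.09e-07). Its exons overlap Tmem63b on the other strand, which fell by 1.14 on the log2 scale, so the fall of Mrpl14 is uncertain in size. The gene for the factor, Malsu1, was higher in C26 (log2 change 0.30).

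Mrpl9, like its bacterial counterpart, is a protein of the large subunit. Its level lay at 954 to 1127 in CT (median 1051) and at 534 to 661 in C26 (median 622), with a wide gap between the groups and a log2 change of -0.78 ± 0.06 (SE, limma, adjusted p = 2.84e-11). Mrpl47, whose bacterial counterpart borders the tunnel exit, fell from a median of 260 (223 to 302) to 152 (141 to 202), a log2 change of -0.73. Its groups did not overlap either, though its exons overlap Ndufb5 and Actl6a, both lower in C26 (log2 change -0.97 and -0.31).

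Around the catalytic core, Mrpl2, the counterpart of a bacterial protein needed for peptide bond formation, fell from a median of 901 (760 to 1045) to 604 (505 to 672). Mrpl1, which in bacteria belongs to the mobile stalk where spent tRNA leaves, fell from 528 (472 to 551) to 339 (282 to 374). Neither gene overlapped between CT and C26, and their log2 changes were -0.63 and -0.64.

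A second stalk recruits the translation factors. Mrpl12, its factor-binding protein, fell from a median of 682 (641 to 758) in CT to 503 (370 to 568) in C26, without overlap, a log2 change of -0.51 ± 0.07 (SE, limma, adjusted p = 2.71e-07). Mrpl11, at the base of the stalk, changed by -0.21, with 7 of 8 C26 livers below every CT liver. Mrpl10, which anchors Mrpl12, lay at 540 to 649 in CT and 458 to 611 in C26. Its log2 change of -0.12 was not called (adjusted p = 0.0728 by limma), but was called without CT 3 (adjusted p = 0.0448) or without C26 3 (adjusted p = 0.0357).

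At the tunnel exit, Mrpl45 holds the ribosome against the inner membrane, where the new protein is inserted. It fell from a median of 453 (421 to 482) to 334 (267 to 388), with no overlap and a log2 change of -0.45. Mrpl58, also known as Ict1, can free a peptide from a stalled ribosome, and fell by 0.34 on the log2 scale with 7 of 8 C26 livers below every CT liver. The large subunit proteins with Mrps symbols also fell, Mrps18a with a log2 change of -0.63 and Mrps30 with -0.37. Mrps36, of the 2-oxoglutarate dehydrogenase complex, fell from a median of 191 (163 to 214) to 127 (114 to 137), a log2 change of -0.60, with no overlap.

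Mrpl17 (GRCm38 chromosome 7, 105803206 to 105811099, minus strand), next to the tunnel exit in bacteria, rose most. The stretch before its start, with the NRF1 letters, is printed above. It ran from 756 to 853 in CT (median 790), from 1246 to 1566 in C26 (median 1361) and from 977 to 1475 in C26-CHO (median 1341). Every tumour-bearing liver lay above every CT liver, at 1.75 times the CT level in C26, a log2 change of 0.80 ± 0.07 (SE, limma, adjusted p = 6.11e-11). Mrpl17 has no exon overlap, and it was called higher under every scaling tried.

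Mrpl43 (GRCm38 chromosome 19, 45004829 to 45006442, minus strand), a large subunit protein of mitochondria only, rose from a median of 638 (550 to 740) in CT to 941 (906 to 1070) in C26, without overlap, a log2 change of 0.62 ± 0.06 (SE, limma, adjusted p = 2.82e-09). It too was called under every scaling, but its exons overlap those of Twnk, the mitochondrial DNA helicase, on the other strand (log2 change 0.36). Mrpl54 rose from 225 (200 to 284) to 326 (256 to 366), and 7 of 8 C26 livers lay above every CT liver. Mrpl20, which in bacteria is needed early in assembly of the subunit, rose from 442 (390 to 536) to 612 (514 to 658) with some overlap. Their log2 changes of 0.46 and 0.36 fell to 0.10 and 0.02 when values were scaled to all reads, and neither was then called.

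Mrpl34, with a level of 707.1 per kilobase of exon in CT, lay near the threshold of the test. It ran from 355 to 498 in CT and from 434 to 566 in C26, a log2 change of 0.19 (limma, adjusted p = 0.0284), which was not called without CT 3, CT 5, C26 1, C26 2 or C26 4 (adjusted p from 0.0526 to 0.0714) and changed sign when scaled to all reads. Mrpl19 had a low level per kilobase, 40.6 in CT, and lay at 204 to 242 in CT and 194 to 243 in C26. Its log2 change was -0.01 with a 95% interval from -0.14 to 0.11.

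**Figure D2:**
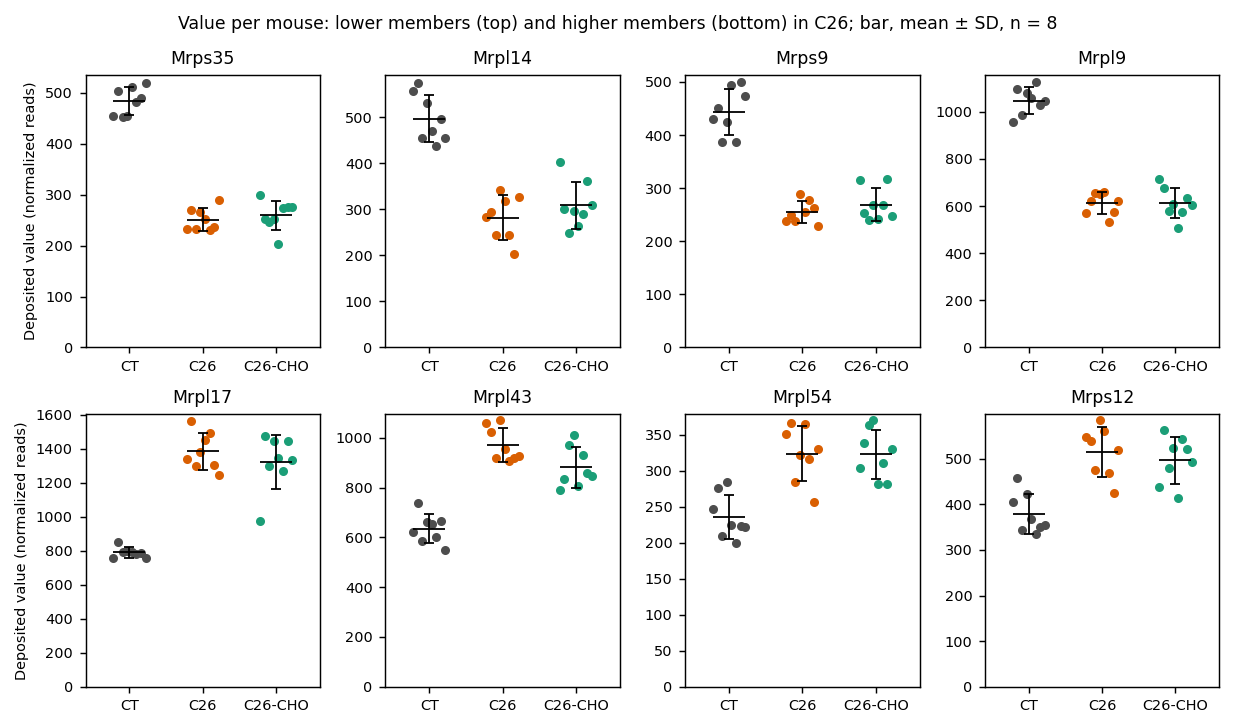
Deposited value (reads divided by the library's size factor) of 8 genes in each mouse, with the mean and SD of each group of 8. Mrps35, Mrpl14, Mrps9 and Mrpl9 (top) are lower in both tumour groups than in every CT mouse, and Mrpl17 and Mrpl43 are higher than in every CT mouse; Mrpl54 and Mrps12 overlap between CT and C26 and are not called when scaled to all reads.

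The proteins enter the ribosome in a fixed ratio, while the levels of their transcripts did not. Per kilobase of exon, CT means ran from 26.9 for Mrps25 to 895.6 for Mrps21, with Mrpl2 at 786.3 and Mrpl34 at 707.1 near the top and Mrps30 at 42.2 and Mrpl19 at 40.6 near the bottom. The order depends on the length used. By the length of the principal transcript Mrpl34 ranked 8 and not 3, and Mrpl42 ranked 2 and not 38. That ranking leaves out Mrpl2 and other genes for which no such length was found. The SD of the log2 level per kilobase over the 76 genes was 1.11 in CT, 1.21 in C26 and 1.20 in C26-CHO.

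Cholestyramine was not followed by a detectable change in any of the 76 genes. In C26-CHO against C26, 0 of 76 were called by limma, by edgeR with either scaling or by DESeq2, where limma called 0.705% of all tested genes (0.556% higher and 0.15% lower). That share, 99 genes, was unstable: it was 10 genes when only the C26 and C26-CHO libraries were fitted and 326 by DESeq2. It fell to 23 genes without C26-CHO 7, 25 without C26 1, 51 without C26 7, 53 without C26 2, 55 without C26-CHO 6 and 56 without C26-CHO 8, and rose to 160 without C26-CHO 4 and 273 without C26-CHO 3. The unadjusted p lay under 0.05 for 5 of the 76 (6.58%), against 13% of all tested genes, and the lowest adjusted p was 0.295. The median log2 difference was 0.02 over the 76 genes. The 95% intervals of all 76 lay within 0.5 of 0 on the log2 scale, between -0.36 and 0.35, and those of 58 within 0.25, so that larger effects of the resin on single genes lie outside these intervals. The 5 genes, chosen after their values were seen, were Mrpl2 (0.17), Mrpl48 (0.17), Mrpl23 (0.16), Mrpl43 (-0.14) and Mrps2 (-0.15). Without the library C26-CHO 1 the count stayed at 0, as it did without any other single library.

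C26-CHO and C26 were each compared with the same CT mice, so the comparisons share them. In C26-CHO against CT, 43 of the 76 genes were lower and 11 higher (median log2 change -0.25), where 62.2% of all tested genes were called, 31.3% higher and 30.9% lower. Groups did not overlap for 25 of the 76, against 25.2% of all genes tested. Without C26-CHO 1 the counts were 44 lower and 13 higher, and groups did not overlap for 31 of the 76, against 32.1% of all genes tested. Side by side, the log2 change in C26 and in C26-CHO against CT was -0.95 and -0.90 for Mrps35, -0.83 and -0.69 for Mrpl14, -0.79 and -0.72 for Mrps9 and -0.78 and -0.78 for Mrpl9. For genes that rose it was 0.80 and 0.73 for Mrpl17, 0.62 and 0.47 for Mrpl43 and 0.46 and 0.45 for Mrpl54. Mrpl34, at 0.19 in C26, was at 0.09 in C26-CHO and not called.

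Of the C26-CHO livers, number 1 was nearest to CT in these genes, as it was on the leading axis over all tested genes. The genes counted here were called between the same CT and C26 livers that serve as limits. The share over all tested genes was not computed, so the counts do not set these genes apart from others. Of the 43 genes lower in C26, 27 lay in this liver above every C26 liver and 20 reached the lowest CT liver. The next, C26-CHO 7, had 17 above every C26 liver, and the other 6 livers had 0 to 9. Of the 13 genes higher in C26, 6 lay in C26-CHO 1 below every C26 liver, among them Mrpl17 at 977 against 1246 in the lowest C26 liver.

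Several of the genes share a start region with a neighbour read in the other direction. For 21 of the 76, the nearest protein-coding gene on the other strand that starts at most 1000 bases before the gene's start, or under 200 bases inside it, was tested. Both genes were called in C26 against CT for 13 of the 21 (61.9%), in the same direction for 10 and in opposite directions for 3. By the same rule 1267 of 12460 tested protein-coding genes had such a neighbour, both were called for 42.9% of them, and 65.1% of those moved in the same direction. With starts up to 1000 bases inside the gene allowed, a limit tried after seeing the data, 29 of the 76 had a neighbour. Both were called for 20 of them, and 14 (70%) moved in the same direction and 6 in opposite directions. By this wider rule 1700 of 12460 tested protein-coding genes had a neighbour. Both were called for 43.8% of these, and 65.0% of those moved in the same direction. The 3 opposite pairs under the first rule were chosen after their values were seen. Mrps12 rose (0.44) where its partner Sars2, the mitochondrial seryl-tRNA synthetase, fell (-0.47). Mrps18c fell (-0.52) beside Helq (0.33), a DNA helicase, and Mrps5 fell (-0.54) beside Zfp661 (0.28). Mrpl2 and Klc4, a kinesin light chain, both fell (-0.63 and -1.10).

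The pair Mrpl46 and Mrps11, also chosen after the values were seen, are both members, fall under the wider limit only, and face away from each other on chromosome 7 with overlapping first exons. Mrpl46 rose from a median of 340 (328 to 398) in CT to 469 (390 to 490) in C26, whereas Mrps11 fell from 172 (141 to 219) to 141 (117 to 157). Their log2 changes were 0.39 and -0.31, uncertain for the overlap, and that of Mrpl46 was not called when scaled to all reads. Between their RefSeq starts lie 41 bases, chr7:78783090-78783130, given on the plus strand, with none of the letters searched.
Mrpl46-Mrps11: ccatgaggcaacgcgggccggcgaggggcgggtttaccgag

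Beyond the Mrp symbols, the ribosome holds further proteins, and it needs assembly factors, translation factors and charged tRNA. The background for the counts of each list in C26 against CT is 33.3% of all tested genes higher and 32.9% lower. In the lists that follow, exons of Dap3, Ddx28, Tfb1m, Mtif3, Fars2, Trap1, Esrra and Gabpa overlap those of a tested gene on the other strand, so their values are uncertain. Of 5 tested subunits with other symbols, 4 were lower and 0 higher in C26 against CT (median log2 change -0.23). The exception was Gadd45gip1 at 0.02. Ptcd3, a small subunit protein that binds RNA, fell by 0.63 on the log2 scale from a level of 891 ± 55.4 to 576 ± 43.5 (SD, n = 8 each), and Dap3, a GTP-binding small subunit protein, by 0.18.

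Factors of mitochondrial translation were mostly lower. Of 14 tested, 11 fell and 1 rose (median -0.31), among them Gfm1, the elongation factor that moves the ribosome along (-0.47), Tufm, which delivers charged tRNA (-0.39), and Mtif3, an initiation factor (-0.60). The exception was Mrrf (0.34), the recycling factor that takes the ribosome apart. Of 17 mitochondrial aminoacyl-tRNA synthetases, 9 fell and 3 rose (median -0.26), with Nars2 for asparagine at -1.13 and Fars2 for phenylalanine at -0.98 against Lars2 for leucine at 0.86 and Ears2 for glutamate at 0.81.

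Of 28 assembly and rRNA-modifying factors, 12 were lower (42.9%) and 8 higher (28.6%), against 32.9% and 33.3% of all tested genes (median -0.05). Noa1, a GTPase of small subunit assembly, fell by 0.86, whereas Tfb1m, which methylates the small subunit rRNA, rose by 0.62 on the log2 scale. Ddx28, a helicase of large subunit assembly, rose from 251 ± 22.1 in CT to 2020 ± 175 in C26 (SD, n = 8 each), a log2 change of 3.00 ± 0.14 (SE, limma, adjusted p = 5.93e-16). Its overlapping neighbour Dus2 was at 1.84.

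Of 25 genes of mitochondrial transcription and RNA handling, 15 fell and 3 rose (median -0.21). Tfam, which packs mitochondrial DNA and starts its transcription, fell by 0.27, Lrpprc, which stabilises the messenger RNAs, by 0.41, and Grsf1, of the RNA granules, by 1.06 on the log2 scale. Polrmt, the mitochondrial RNA polymerase, was at -0.11 (limma, adjusted p = 0.173) and not called. Of 14 proteases and chaperones 9 fell and 3 rose (median -0.21), with Trap1, a chaperone, at -0.98 and Lonp1, the matrix protease, at -0.75.

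The products of the ribosome can be set beside it. Of the 13 mitochondrially encoded mRNAs, 11 were lower and 0 higher in C26 (median -0.47), with mt-Co1 at -0.69. Of 78 nuclear subunits of the respiratory chain and ATP synthase, which join those products in the same complexes, 74 were lower and 0 higher (median -0.81), with Uqcrc2 at -1.03 and Sdhb at -1.48. On the deposited scale cytosolic ribosomal proteins went the other way, with 49 of 81 higher and 6 lower (median 0.18). Values of the lists scaled to all reads are not given here. On that scale the median log2 change of all tested genes was -0.28, so the direction of this list may depend on the scaling. The differences between the lists were not tested.

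Of 13 regulators known to drive genes of mitochondria, 4 were lower and 4 higher (30.8% each), near the 32.9% and 33.3% of all tested genes. Regulators that fell included Ppargc1b, a coactivator (log2 change -2.20), Ppara, a receptor for fatty acids (-1.69), and Esrra, an orphan receptor (-1.41). Pprc1, a related coactivator, rose by 0.94 and Nrf1, the factor behind the NRF1 letters above, by 0.28 on the log2 scale. Gabpa (-0.03), Yy1 (0.04), Myc (0.08) and Ppargc1a (-0.31) were not called. In C26-CHO against C26, 1 gene of all these lists was called: Dnaja3, a mitochondrial chaperone, which was lower (-0.34, limma, adjusted p = 0.0315) after rising in C26 against CT (0.43). This call was not stable. When only the C26 and C26-CHO libraries were fitted, 10 of all tested genes were called higher and 0 lower, so Dnaja3 was not called there. For the same comparison in the fit of all 24 libraries, none of the 78 nuclear respiratory chain and ATP synthase subunits was called. Even so, 74 of the 78 had an estimate above 0 (median 0.13), as had 7059 of all 14040 tested genes. The unadjusted p by limma lay under 0.05 for 25 of the 78 (32.1%, against 13% of all tested genes). The 78 genes were read in the same livers, so these counts describe genes that are not independent, and a shift of the list was not tested. Without C26-CHO 1, 73 of the 78 were above 0, with a median of 0.09.

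**Figure D3:**
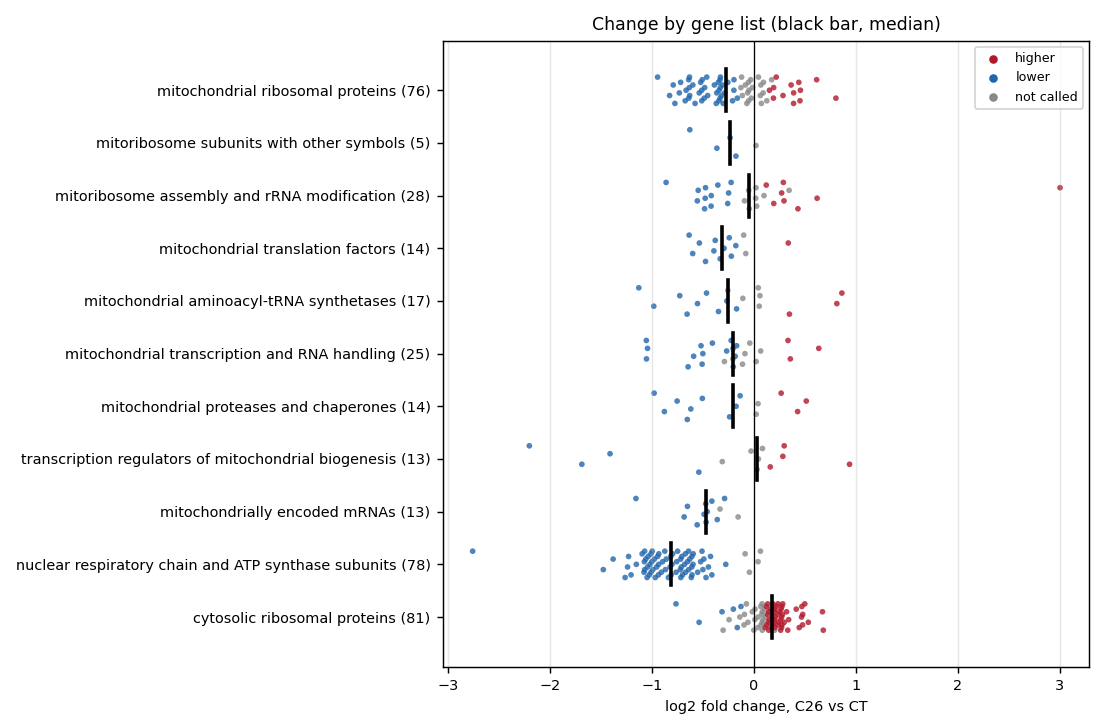
Log2 fold change in C26 against CT of the genes of each list, 1 point per gene, with the number tested in brackets and a black bar at the median. The mitochondrial ribosomal proteins (median -0.27) spread on both sides of 0, nuclear respiratory chain and ATP synthase subunits (median -0.81) lie almost all below it and cytosolic ribosomal proteins (median 0.18) mostly above it; scaling to all reads moves the median of all genes by -0.28.

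Markers of cell types also moved between CT and C26, and their part in these results was not tested. Of 7 hepatocyte markers 3 were lower, Alb (log2 change -2.06), Ttr (-2.52) and Cps1 (-1.33). Hnf4a was higher (0.40), and Apob, Asgr1 and Serpina1c were not called. The summed levels of the 7 were 1390680 to 1597970 in CT and 548250 to 719895 in C26. Of 8 Kupffer cell and macrophage markers 7 were higher, with sums of 4270 to 6197 and 7491 to 9807, and of 7 neutrophil markers all 3 that were tested were higher (11.5 to 30.9 and 142 to 633). Of 5 cholangiocyte markers Sox9 and Spp1 were higher (sums of 311 to 473 and 5471 to 11392), while Krt7, Krt19 and Epcam were not called. Of 6 colon markers 1 was tested and was lower in C26 livers. Cdx1, Cdh17 and Krt20 had no value above 0 among the genes used here, Cdx2 was at 0 in every CT liver, and the sum ran from 174 to 450 in CT and from 99.4 to 206 in C26. In C26-CHO against C26, 0 markers were called.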

How the data were processed

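Livers were frozen, and RNA was extracted with Trizol, per the labels' protocols. Per the submitters' processing notes, reads passed through bcl2fastq 2.17, FastQC, Trimmomatic 0.38, STAR 2.6.1d (GRCm38) and DESeq2 1.22.2; counter, annotation and strand use are not given in sources used here. The authors deposited a normalized signal, gene reads divided by a size factor per library. Whole reads were recovered for 100.0% of values, within 0.001 of a read, and gave the depths. Depth limits each value through counting error, and intervals are from the fit between mice.

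Symbols, types and positions came from GENCODE M21. 22009 of 22392 identifiers matched. Of 78 annotated genes of the rule, 2 have no row in the table used here. The 14040 genes whose mean value reached 10 were tested with limma 3.58.1 (R 4.3.3, lmFit and eBayes with trend) on log2 of the value plus 1, all 24 libraries in 1 fit without covariates. Called means an adjusted p (Benjamini-Hochberg, per contrast) under 0.05. Unless a sentence says otherwise, single-gene changes are from this fit. The code was tested on simulated data. Alternatives included other pseudocounts, filters, scalings, edgeR 4.0.16, DESeq2 1.42.0 and left-out libraries.

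The members, lists and classes were chosen with earlier results of these data known. Named members are, per comparison, up to 5 called with the largest rise and up to 5 with the largest fall, the 3 highest and 3 lowest per kilobase, and 10 with known roles; from each list, up to 3 genes with the smallest p and 10 set regulators and factors. Gadd45gip1, Malsu1, Pprc1, Mrrf, Lars2, Ears2, Sdhb and Dnaja3, and other genes not under this rule, were chosen after their values were seen. The markers of T and NK cells (1 lower of 1 tested), B cells (3 lower of 4), endothelium (4 higher, 1 lower of 6), stellate cells (2 higher, 1 lower of 7), erythroid cells (2 higher, 1 lower of 3) and dividing cells (2 lower of 4) in C26 against CT were read the same way.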

Additional observations from a re-analysis of the deposited data

Results flagged for a closer look

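In 78 sets of 8 mice (26 named genes, each in 3 groups), 3 values lay far from the rest of their group by Dixon's test. Chance alone gives this in about 1 in 20 such sets. Mrpl17 was 853.498 in CT 2, above the other CT livers. Mrpl17 was 977.484 in C26-CHO 1, below the other C26-CHO livers, in the library that also stood apart over all genes. Mrpl47 was 201.865 in C26 8, above the other C26 livers.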

How the results depend on the processing

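The counts of called genes kept their size under all but 1 of the alternatives run. Scaling to all reads of the library (RPM) turned 13 higher and 43 lower into 2 and 67 in C26 vs CT, and 11 higher and 43 lower into 2 and 65 in C26-CHO vs CT. Under it Mrpl34 changed sign (-0.15 in C26 vs CT and -0.21 in C26-CHO vs CT), as did Mrps25 (-0.24 and -0.27), which was not called on the deposited scale. Leaving out each of the 24 libraries in turn gave 11 to 14 higher and 41 to 46 lower in C26 vs CT, 0 and 0 in C26-CHO vs C26, and 10 to 13 higher and 43 to 44 lower in C26-CHO vs CT. With the replicate number as a block the counts were 13 and 45, 0 and 0, and 12 and 43. Correlations between same-numbered mice were low (from -0.20 to 0.25), which does not settle whether the numbers mark a pairing or a batch. Over all tested genes the block moved the calls from 9305 to 9643 in C26 vs CT. In C26-CHO vs C26 they went from 99 to 97, and in C26-CHO vs CT from 8739 to 9079. With 8 mice a group, the median half-width of the 95% interval in C26-CHO vs C26 was 0.14 on the log2 scale. That is the precision of single estimates and not the limit of the test, which adjusts over all tested genes. Mrpl48, at 0.17, was not called (limma, adjusted p = 0.299), so small effects of the resin can go uncalled.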
